A study of Mus musculus with 7 samples.

Results

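The 2 libraries described here are the control-diet libraries of a 7-library bulk RNA-seq series on mouse intestinal cells marked by Bmi1. They were chosen by their label alone, as the replicates 1 and 2 fed AIN76A, and their expression levels are described on their own, without the other diets. Both came from male mice 3 months old, of the strain labelled BmicreERT2, Rosa26RFP, which received the highly purified AIN76A diet from weaning onwards. Crypts were dispersed to single cells, and strongly red cells that carried the epithelial surface protein Epcam and lacked CD45, a protein of leukocytes, were collected in bulk. The red signal depends on an inducible Cre driven by Bmi1 that switches on a reporter at the Rosa26 locus, so it can mark cells with past Cre activity as well as their descendants. The labels give no time of induction, no intestinal segment and no statement on whether each library is its own animal, so differences between the libraries measure the spread between these samples only. The sequence of the red reporter was not analysed here.

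The intestinal crypt holds stem cells at its base and dividing progenitors above them, which give rise to absorptive enterocytes and to secretory Paneth, goblet, enteroendocrine and tuft cells. Cycling stem cells are known by Lgr5, while Bmi1, a subunit of the Polycomb repressive complex that silences genes through chromatin, has been used with Hopx, Lrig1 and Tert to mark a slowly cycling reserve population. Secretory precursors that can return to a stem cell state have also been described among Bmi1-marked cells.

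Totals were 58419160 counts in replicate 1 and 39657707 in replicate 2. Of 37310 genes in the table, 20746 had a count in either library, and 10251 of these, or 49.4%, reached 1 TPM in both. TPM scales each count by gene length and by library, and so lets genes be ranked against one another. A gene with no count could hold up to 3 counts unseen, which is 0.0514 CPM (counts scaled to library size) in replicate 1 and 0.0756 in replicate 2, for counting error only. With 2 libraries of 1 group there was no contrast to test, so each value is given for replicate 1 and then replicate 2 and no p-value is given.

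Transcripts of differentiated crypt and villus cells were prominent at the top of the ranking. Defa24, an alpha-defensin of Paneth cells, was the highest gene in both libraries, at 64492 and 52740 TPM, or 6.45% and 5.27% of all TPM. The fatty acid binding protein gene Fabp1, of enterocytes, followed with 24189 and 34704 TPM, and Fth1, the ferritin heavy chain, with 26571 and 21777 TPM. Lyz1, the lysozyme of Paneth cell granules, had 17127 and 16526 TPM. A product of a goblet cell granule gene, Zg16, had 18962 and 10514 TPM. Products of Paneth cells, enterocytes and goblet cells were thus all within the 6 highest genes. The 10 highest genes together held 22.5% and 20.04% of TPM, the 100 highest 51.4% and 47.2%, and the 1000 highest 82.6% and 79.1%.

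**Figure D1:**
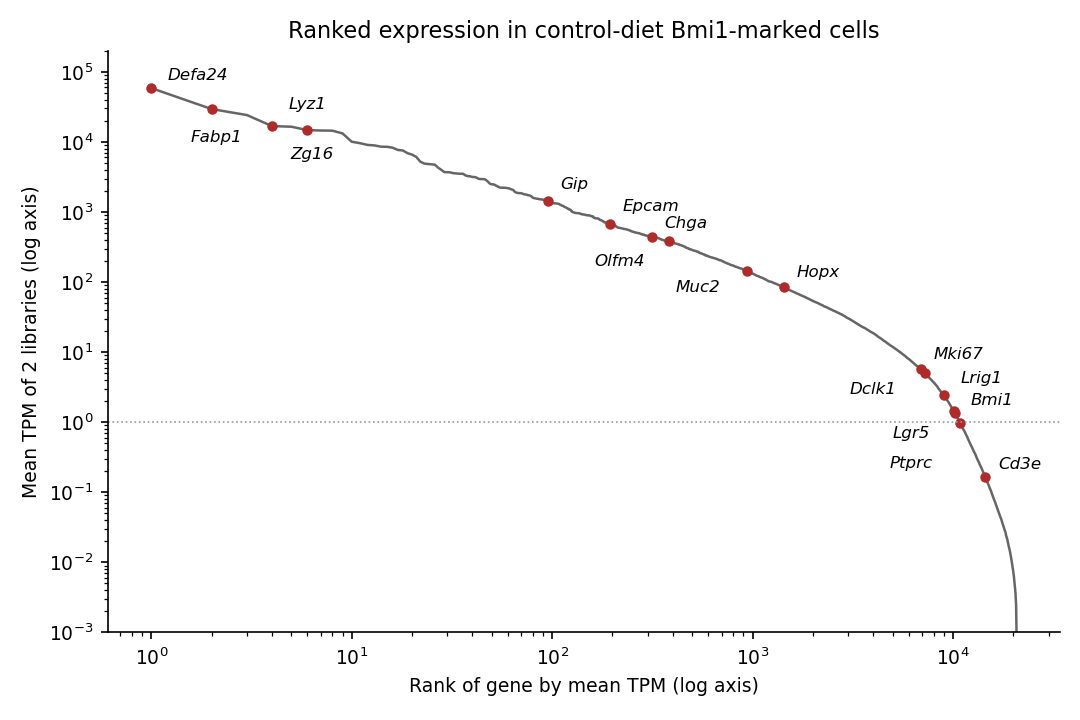
Mean TPM of the 2 control-diet libraries for each gene (vertical log axis) against the rank of the gene (horizontal log axis), with named genes as red points and a dotted line at 1 TPM. Defa24 stands at the top of the curve, while Bmi1 and Lgr5 lie near the dotted line, at ranks 10114 and 10202.

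Other genes of the 30 highest came from the same lineages or from shared cell functions. Among genes of lipid handling, Apoa1, an apolipoprotein, had 14322 and 14783 TPM and Rbp2, a retinol binding protein, 7376 and 12743 TPM. Fabp2 had 5448 and 12375 TPM, and Apoa4, an apolipoprotein of chylomicrons, 3954 and 8258 TPM. Fabp1, Rbp2, Fabp2 and Apoa4 were all higher in replicate 2. Of the secreted proteins, Reg1 had 17644 and 8816 TPM, and Reg3g, an antibacterial lectin, 4341 and 4232 TPM. The trefoil factor Tff3 had 13532 and 5648 TPM and the protease inhibitor gene Spink4 had 6948 and 2645 TPM, so both of these goblet cell genes were more than 2-fold higher in replicate 1. Itln1, a lectin, had 10093 and 8025 TPM. AY761184, listed without a current gene name, had 8134 and 8965 TPM. Smim24 (deposited as 2210404O07Rik), Lypd8 (deposited as 2210415F13Rik), Crip1, Lgals2, Prap1, B2m, Ldha and Actb lay between 3648 and 9956 TPM. Lypd8 encodes an antibacterial protein of the gut surface, B2m the light chain of MHC class I and Ldha a lactate dehydrogenase subunit. The 30 highest genes of each library shared 24 genes, and the 100 highest shared 86.

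Genes of oxidative metabolism were the other large group of the top 100. By symbol, a grouping made after the values were seen, 17 of the 100 were nuclear genes of the respiratory chain or the ATP synthase, such as Cox6b1, Cox4i1, Ndufa4 and Atp5b, and they lay between 1092 and 4203 TPM in either library. Another 7 were genes of the mitochondrial genome. By the marker lists, 14 were enterocyte, 7 Paneth, 5 goblet and 4 general epithelial genes, with 1 gut hormone gene, Gip, and some genes are on more than 1 list. The Paneth list lacks the alpha-defensin genes Gm15284, Gm14851 and Gm14850, which were also among the 100. No gene of the cycling stem, proliferation, tuft or enteroendocrine lists was among the 100 highest. Ribosomal protein genes, with symbols starting Rpl or Rps, were also absent from them. How reads that match several genes were counted is not given. Whether genes with copies elsewhere in the genome rank too low was not tested.

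Because alpha-defensins resemble one another closely, the level of a single family member is uncertain. Their likeness is shown by the first 60 bases of the coding sequence, taken from GENCODE mouse release M21 for the highest members and for those that differed most between the libraries. Capitals mark bases that differ from Defa24 at the same position.
Defa24: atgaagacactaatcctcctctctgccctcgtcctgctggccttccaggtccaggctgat
Gm15284: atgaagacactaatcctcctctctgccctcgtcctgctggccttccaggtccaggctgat
Defa17: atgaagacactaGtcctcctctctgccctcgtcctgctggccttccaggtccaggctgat
Gm14851: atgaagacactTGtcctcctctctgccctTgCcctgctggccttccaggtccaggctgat
Gm14850: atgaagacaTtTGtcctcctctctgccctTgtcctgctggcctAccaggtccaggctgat
Gm10104: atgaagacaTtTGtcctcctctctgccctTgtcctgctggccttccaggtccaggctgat
Gm15299: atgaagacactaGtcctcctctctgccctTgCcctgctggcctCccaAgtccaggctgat

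Over these 60 bases Gm15284, now named Defa30, was identical to Defa24, and over the whole coding sequence 278 of 282 bases were the same. Defa17 differed at 1 of the 60 bases, Gm14851 and Gm10104 at 4, and Gm14850 and Gm15299 at 5. For Defa24, 28.1% of all 50-base stretches of its transcripts also occurred in another annotated gene, against 52.4% for Gm15284 and 92.0% for Defa17. Of 21 alpha-defensin genes matched to the annotation, 17 shared more than 50% of their stretches. How the counting treated reads that match several genes is not given in the sources used here.

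As a family, alpha-defensins held a large share of TPM. The 24 measured genes with a deposited or current alpha-defensin symbol held 9.99% of TPM in replicate 1 and 8.73% in replicate 2. Of these, 21 reached 1 TPM in both. AY761184, described above, was not counted among them. After Defa24, Gm15284 had 16870 and 16090 TPM, Gm14851 7200 and 9337 TPM, and Defa17 3843 and 2604 TPM. Gm14850, now named Defa37, had 2372 and 2990 TPM. These leading members kept within 2-fold between the libraries, while several lower ones did not. Gm10104, now Defa35, had 551 and 7.93 TPM, and Gm15299, now Defa27, had 133 and 1.94 TPM. In the opposite direction, Gm15315, now Defa34, had 13.5 and 67.2 TPM.

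Lineage markers were summarised by lists of genes, each described by how many members reached 1 TPM in both libraries and by the median of their mean TPM, beside a median of 1.25 TPM over all 20746 genes with a count. In bulk RNA, fewer cells of a type and less RNA per cell cannot be told apart, so a list's level is not a share of cells.

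**Figure D2:**
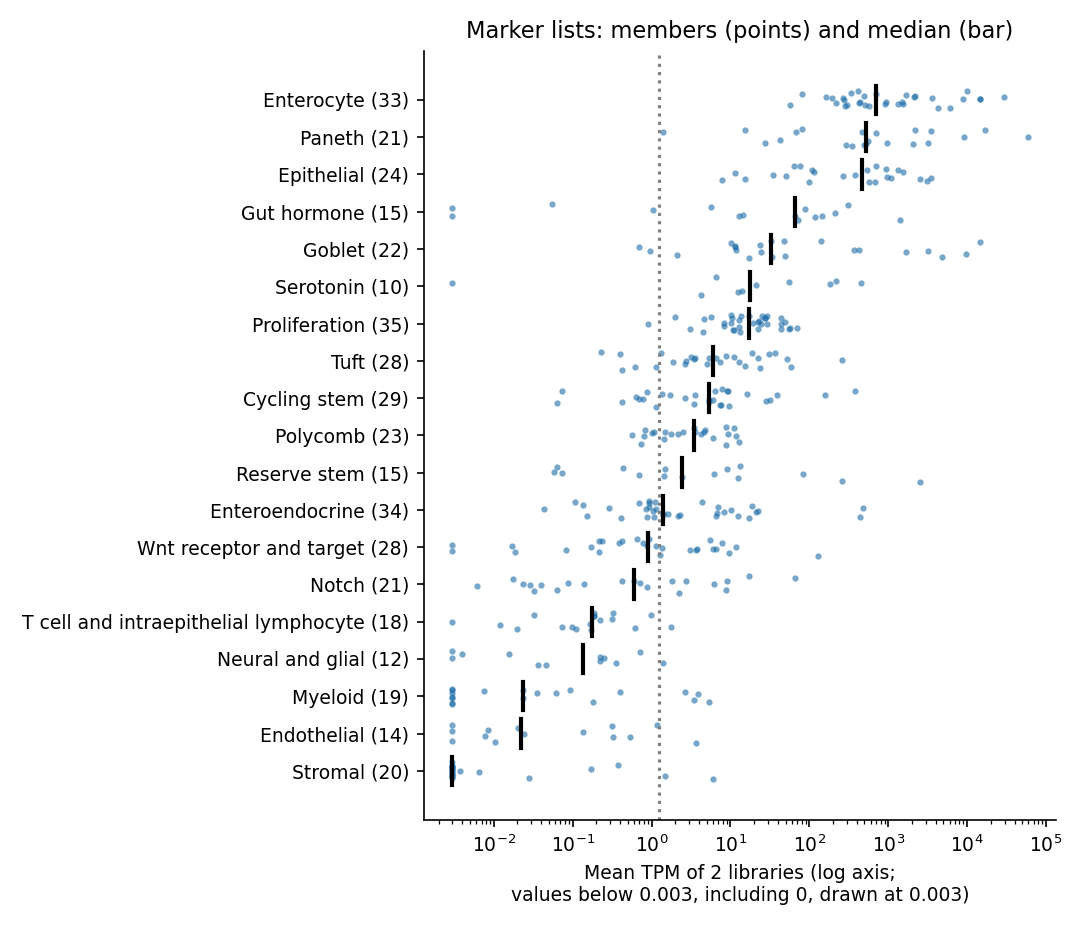
Mean TPM over the 2 control-diet libraries (horizontal log axis) for the members of 19 marker lists, 1 row per list with its number of measured genes, where points are genes, bars are list medians and the dotted line is the median of all genes with a count. Enterocyte and Paneth lists have the highest medians, at 704 and 518 TPM, and the stromal list the lowest.

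Among the lineage lists as written, enterocyte genes had the highest median, 704 TPM, at percentile 99.1 of all genes, and held 9.52% and 12.4% of TPM. All 33 members reached 1 TPM in both libraries. Alpi, the brush border alkaline phosphatase, had 1433 and 2823 TPM, Lct, lactase, 124 and 316 TPM, and Sis, sucrase-isomaltase, 945 and 869 TPM. Alpi and Lct were higher in replicate 2 while Sis was nearly equal. The glucose transporter gene Slc5a1 had 2153 and 2269 TPM, and the lowest of the list was Slc15a1, the peptide transporter, with 33.3 and 79.7 TPM.

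Paneth cell genes came next, with a median of 518 TPM at percentile 98.8, and 20 of 21 members reached 1 TPM in both libraries. The list, which lacks the alpha-defensin genes Gm15284, Gm14851 and Gm14850, held 10.9% and 9.07% of TPM. Mmp7, the protease that activates alpha-defensins in mice, had 414 and 275 TPM, Ang4, an antimicrobial ribonuclease, 2558 and 1782 TPM, and Pla2g2a, a secreted phospholipase, 79.2 and 55.3 TPM. All 3 were higher in replicate 1. Without its alpha-defensin genes the list had a median of 707 TPM over 11 genes, and held 3.74% and 3.22% of TPM. Within the libraries this median was 967 and 447 TPM, beside 668 and 739 TPM for the enterocyte list. The exception below 1 TPM was Defa23, with 2.31 and 0.472 TPM.

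Goblet cell genes had a median of 33.0 TPM, at percentile 86.2, and 20 of 22 reached 1 TPM in both libraries. The list held 4.71% of TPM in replicate 1 and 2.32% in replicate 2, and Zg16, Tff3 and Spink4, described above, were its highest members. Muc2, the main gel-forming mucin, had 161 and 124 TPM, and Agr2, a disulfide isomerase needed for mucin folding, 2213 and 1117 TPM. The gene deposited as Clca1 stayed below 1 TPM, at 0.789 and 0.61 TPM. List symbols were matched to deposited names first, and whether this symbol now names another gene was not checked. Retnlb, also on the list, had 1.65 and 0.279 TPM. Even without Clca1, members therefore spanned from below 1 TPM to over 10000 TPM in replicate 2.

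Enteroendocrine genes spanned a wide range of levels. Of the 34 members 17 reached 1 TPM in both libraries, a share of 50% beside 49.4% for all genes, and the median was 1.39 TPM. The granins Chga, at 321 and 569 TPM, and Chgb, at 308 and 647 TPM, were far above the rest. The next by mean was Cpe, carboxypeptidase E of prohormone processing, at 9.42 and 35.2 TPM, although in replicate 1 Resp18, with 16.9 TPM, and Scg2, with 16.6 TPM, were above it. Syp, synaptophysin, and Stx1a, of vesicle fusion, stayed below 1 TPM in both libraries. Neurod1, a differentiation factor, had 4.13 and 9.21 TPM, and Neurog3, the factor that starts this lineage, 1.55 and 1.70 TPM. None of the 25 members with at least 1 TPM in either library was higher in replicate 1, beside 70.9% of all genes compared that were higher in replicate 2.

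The hormones themselves were abundant. Gip, which encodes the incretin of K cells, had 1424 and 1428 TPM and was the highest, followed by Sct, secretin, with 293 and 320 TPM, Cck, cholecystokinin, with 177 and 246 TPM, Sst, somatostatin, with 150 and 140 TPM, and Ghrl, ghrelin, with 134 and 100 TPM. These 5 kept the same order in both libraries, with ranges that did not overlap between neighbours. Tac1, the tachykinin precursor, had 60.4 and 115 TPM, Gcg, proglucagon, 83.9 and 61.1 TPM, and Nts, neurotensin, 83.1 and 50.1 TPM. The ranges of Ghrl and Tac1, of Tac1 and Gcg and of Gcg and Nts overlapped, so their order is not settled by 2 libraries. Pyy had 8.2 and 20.9 TPM, Ucn3 9.08 and 17.0 TPM and Iapp 5.61 and 5.58 TPM. Gast, gastrin, had 1.69 and 0.422 TPM, Gal, galanin, 0.0404 and 0.0682 TPM, and Vip and Insl5 had no count. Over the 15 hormones the median was 66.6 TPM, at percentile 91.8.

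Genes of serotonin handling were present beside them. Tph1, the enzyme that makes the rate-limiting step of gut serotonin synthesis, had 12.7 and 30.01 TPM, and the vesicle transporter gene Slc18a1 had 9.67 and 18.6 TPM. Maoa, Maob and Ddc, whose products also act outside enteroendocrine cells, were the highest of the list, at 151 to 568 TPM over both libraries. Of the 10 members 9 reached 1 TPM in both, and Piezo2, a mechanosensitive channel, had no count.

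**Figure D3:**
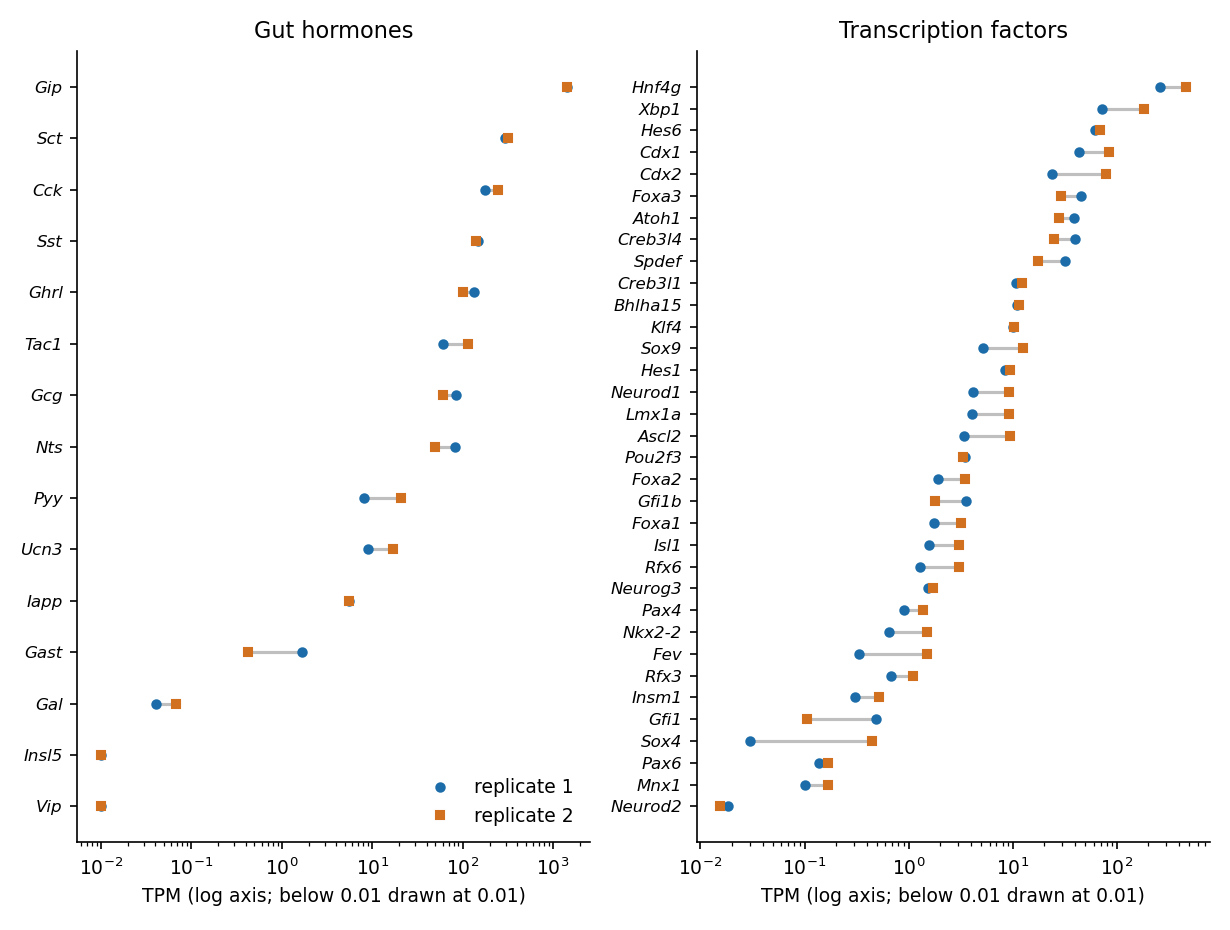
TPM of the gut hormone genes (left) and of transcription factor genes named here (right) in the 2 control-diet libraries, on log axes, with replicate 1 as circles and replicate 2 as squares and values below 0.01 drawn at 0.01. Gip leads the hormones at 1424 and 1428 TPM, and Hnf4g the factors at 259 and 469 TPM.

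Among 36 transcription factor genes of epithelial and secretory fate, 24 reached 1 TPM in both libraries. Hnf4g, an enterocyte factor, had 259 and 469 TPM, Xbp1, which expands the secretory apparatus, 72.4 and 181 TPM, and Hes6, an antagonist of Hes1, 62.1 and 69.6 TPM. The intestinal identity factors Cdx1, at 43.1 and 83.9 TPM, and Cdx2, at 23.9 and 78.4 TPM, were next. Atoh1, which commits cells to the secretory lineages, had 39.0 and 27.8 TPM. Spdef and Creb3l4, of goblet cells, had 31.9 and 17.6 TPM and 40.05 and 25.01 TPM. Foxa3 had 45.3 and 29.4 TPM. These 4 secretory genes were higher in replicate 1, while Xbp1, Cdx1 and Cdx2 were higher in replicate 2.

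The remaining factors were lower. Creb3l1, Bhlha15 and Klf4 lay between 10.1 and 12.3 TPM. Sox9, of stem and Paneth cells, had 5.19 and 12.7 TPM, Hes1, a Notch target, 8.42 and 9.39 TPM, and Lmx1a, of serotonin cells, 4.07 and 9.26 TPM. Foxa1, Foxa2, Gfi1b, Isl1, Rfx6, Pou2f3, Ascl2, Neurod1 and Neurog3 lay between 1.3 and 9.46 TPM. Pax4, Nkx2-2, Fev and Rfx3 lay on both sides of 1 TPM, and Insm1, Gfi1, Sox4, Pax6, Mnx1 and Neurod2 were below 1 TPM in both libraries. Of the 35 neighbouring pairs in this order, 27 had overlapping ranges, so only broad levels are resolved.

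Tuft cell genes had a median of 5.98 TPM, and 22 of 28 reached 1 TPM in both libraries. Cd24a, which is not restricted to tuft cells, had 296 and 224 TPM, and Rgs13, a regulator of G protein signalling, 67.9 and 35.2 TPM. Dclk1, the marker kinase, had 5.02 and 5.03 TPM, Trpm5, the taste channel, 11.1 and 10.8 TPM, and Pou2f3, the lineage factor, 3.49 and 3.33 TPM. The 3 defining markers were thus nearly equal in the libraries, while 20 of the 24 members with at least 1 TPM in either library were higher in replicate 1. Il25, the cytokine, had 0.496 and 0.345 TPM.

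The gene after which the cells are named was near the middle of the ranking. Bmi1 had 134 and 154 counts, which is 0.969 TPM in replicate 1 (95% exact Poisson interval 0.812 to 1.15) and 1.88 TPM in replicate 2 (1.60 to 2.2), so the libraries differed by more than counting error. Its mean of 1.43 TPM lay at percentile 51.2 of genes with a count. Tert, the telomerase catalytic subunit, had 1.11 and 1.83 TPM and Lrig1, an ErbB inhibitor, 2.47 and 2.37 TPM. Hopx stood apart from these, with 82.9 and 85.1 TPM at percentile 93.1. Of the 50-base stretches of Hopx transcripts, 24.0% also occur, on either strand, in its neighbour Hopxos, and the library preparation does not mark strand, so reads of the pair cannot be told apart there. For Bmi1, 16.7% of stretches occur in another annotated gene, mostly in Gm5946.

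Of the 15 reserve stem genes 9 reached 1 TPM in both libraries, with a median of 2.42 TPM at percentile 56.6. The 2 highest, the keratin gene Krt19 at 2824 and 2229 TPM and Cd24a, are expressed widely in the epithelium. Ly6a, a marker of regenerating epithelium, had 17.4 and 9.25 TPM. Clu, also of regenerating cells, had 0.41 and 0.452 TPM, and Anxa1, of the same state, 0.022 and 0.0931 TPM. Areg, an EGF receptor ligand, differed most, with 1.25 and 11.1 TPM. Without Krt19 and Cd24a the list held 0.0122% and 0.0141% of TPM.

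Cycling stem cell genes were uneven in level. Olfm4, a secreted crypt base glycoprotein, had 195 and 567 TPM, at percentile 98.2, whereas Lgr5, the R-spondin receptor, had 0.468 and 2.27 TPM, from 167 and 479 counts. Ascl2, a Wnt-dependent stem cell factor, had 3.44 and 9.46 TPM, and Smoc2, a matricellular protein, 14.0 and 49.1 TPM. All 4 were more than 2-fold higher in replicate 2. Vdr, the vitamin D receptor, had 112 and 203 TPM, and Prom1 32.6 and 45.4 TPM; both are also expressed outside stem cells. Of 29 members 20 reached 1 TPM in both libraries, the median was 5.42 TPM, and the list held 0.0452% and 0.104% of TPM. Of 24 members with at least 1 TPM in either library, 1 was higher in replicate 1, beside the same 70.9% of all genes higher in replicate 2.

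**Figure D4:**
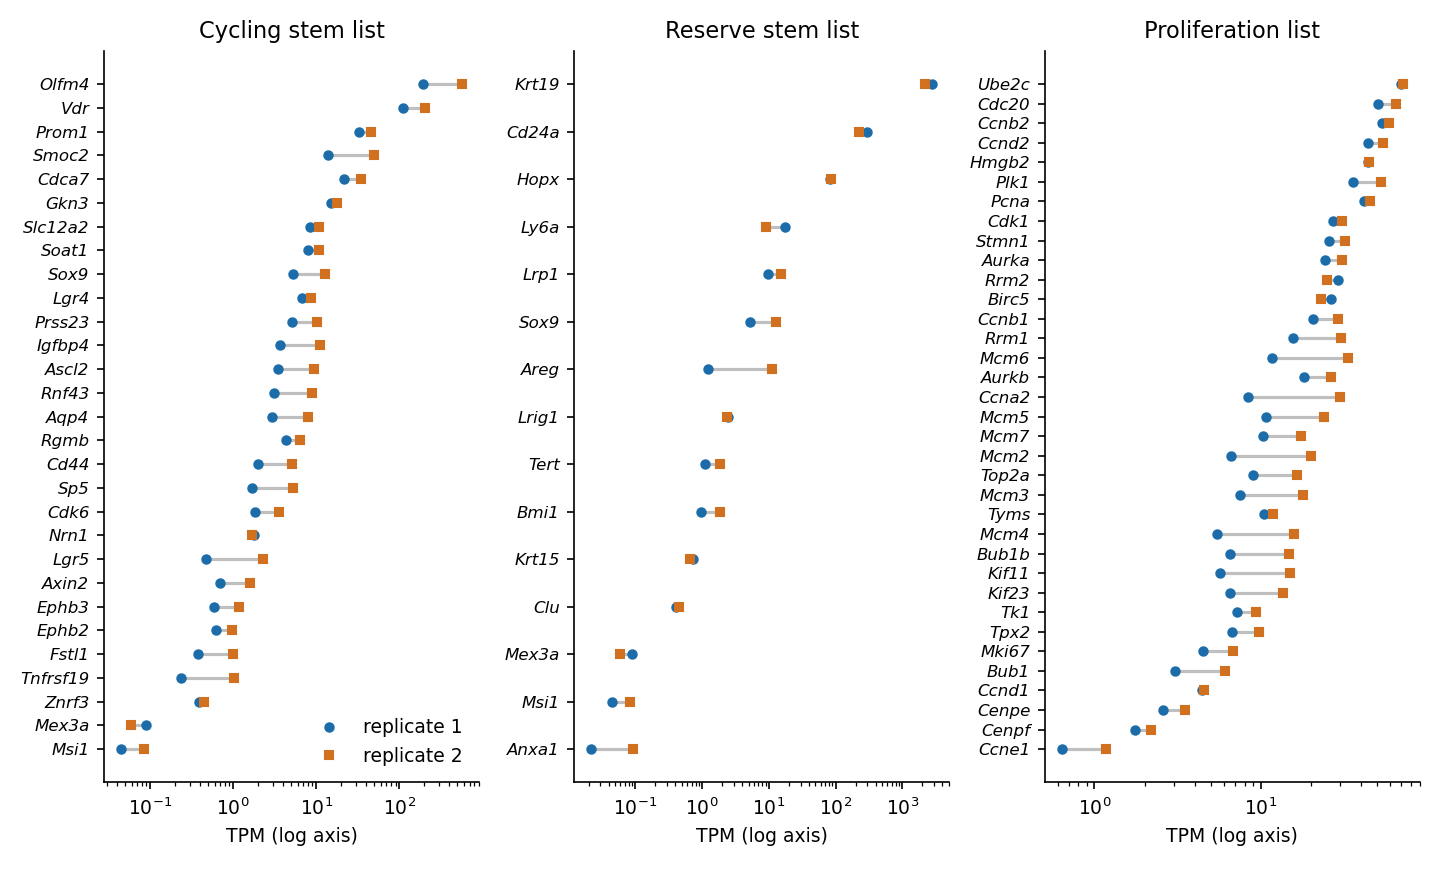
TPM of the genes of the cycling stem (left), reserve stem (middle) and proliferation (right) lists in the 2 control-diet libraries, on log axes that differ between panels, with replicate 1 as circles, replicate 2 as squares and a line joining them. Hopx overlaps at 82.9 and 85.1 TPM, while Lgr5, Smoc2, Areg and Ccna2 show long lines.

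Proliferation genes were detected almost throughout, at moderate levels. Of 35 members 34 reached 1 TPM in both libraries, a share of 97.1% beside 49.4% for all genes, with a median of 17.4 TPM at percentile 80.0. Ube2c, a ubiquitin-conjugating enzyme of the anaphase-promoting complex, had 69.5 and 71.2 TPM, Cdc20, an activator of that complex, 50.3 and 65.0 TPM, and the cyclin gene Ccnb2 53.6 and 58.6 TPM. Mki67, the standard proliferation antigen, had 4.52 and 6.79 TPM, Top2a, a topoisomerase of dividing cells, 8.97 and 16.4 TPM, and Ccnb1 20.5 and 29.0 TPM. The replication helicase genes Mcm2 to Mcm7 lay between 5.46 and 11.6 TPM in replicate 1 and between 15.9 and 33.2 TPM in replicate 2. Each of these 6 genes was higher in replicate 2, as were 33 of the 35 members of the list, beside 70.9% of all genes compared between the libraries.

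Inhibitors of the cell cycle were also present. Cdkn1a, encoding p21, had 297 and 247 TPM, Cdkn2b, encoding p15, 97.5 and 145 TPM, and the antiproliferative gene Btg2 48.9 and 60.1 TPM. Cdkn1a was thus above every proliferation gene in both libraries. Cdkn1b, encoding p27, had 2.54 and 2.93 TPM, and Cdkn1c, encoding p57 and linked to quiescence, 0.923 and 2.74 TPM. Cdkn2a, a classical target of Bmi1 repression, had no count in either library. Of 13 inhibitor genes 10 reached 1 TPM in both.

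Most of the other 22 Polycomb genes had a higher mean level than Bmi1. Eed, a core subunit of the complex that methylates histone H3, had 11.3 and 14.3 TPM, Rnf2, a ubiquitin ligase partner of Bmi1, 9.95 and 13.4 TPM, and Pcgf5, a Bmi1 paralogue, 8.66 and 13.4 TPM. Pcgf1, another paralogue, had 10.1 and 8.54 TPM, and Pcgf3 5.86 and 11.7 TPM. Pcgf2, the closest paralogue of Bmi1, had 0.609 and 0.536 TPM, the lowest of the 23. The methyltransferase genes Ezh1 and Ezh2 had 7.42 and 10.3 TPM and 2.45 and 4.41 TPM. Yaf2, Ring1, Jarid2, Suz12, Cbx8, Phc2, Cbx2, Pcgf6 and Cbx6 lay between 1.05 and 6.61 TPM, and Cbx7, Phc1, Phc3 and Rybp between 0.645 and 1.42 TPM. Of 22 neighbouring pairs in this order 20 had overlapping ranges, and 16 of the 23 genes reached 1 TPM in both libraries.

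Genes of the niche signals had list medians near the middle of the ranking. In the Notch list 8 of 21 members reached 1 TPM in both libraries, led by Hes6, by the ligand gene Dll1 at 14.1 and 20.01 TPM and by the glycosyltransferase gene Rfng at 3.93 and 14.3 TPM, while the receptor gene Notch1 had 0.519 and 0.669 TPM. In the Wnt list 10 of 28 did so, led by Ctnnb1, beta-catenin, at 66.6 and 193 TPM, Myc at 7.22 and 16.4 TPM and Tcf7l2 at 8.02 and 11.1 TPM. Wnt3, the ligand that Paneth cells make, had 7.29 and 5.71 TPM. Both shares, 38.1% and 35.7%, were below the 49.4% of all genes. The medians were 0.594 TPM for Notch and 0.915 TPM for Wnt genes, at percentiles 42.9 and 47.1. By CPM these percentiles were 51.4 and 51.6.

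Of the sort markers, Epcam had 399 and 970 TPM, at percentile 99.1. Ptprc, encoding CD45, had 1.08 and 0.893 TPM, beside a median of 1.25 TPM over all genes with a count. All 24 general epithelial genes reached 1 TPM in both libraries, with a median of 463 TPM, led by Lgals4 at 3738 and 3312 TPM, Krt8 at 3122 and 3063 TPM and Krt19.

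Defining markers of most other tissue compartments were at or near 0, while a minority of their genes reached 1 TPM. Over 103 genes of lymphocytes, myeloid, stromal, endothelial, neural and red blood cells, 15 reached 1 TPM in both libraries, 25 had no count, and together they held 0.00951% and 0.0129% of TPM. For T cells, Cd3e had 0.160 and 0.169 TPM and Cd8a 0.0184 and 0.0465 TPM, and Gzma, the highest of that list, 2.05 and 1.5 TPM. Of 20 stromal genes 10 had no count, including Pdgfra, and Col1a1 and Col3a1 had 0 and 0.00740 TPM and 0 and 0.00578 TPM. Among endothelial genes Cdh5 had no count and Pecam1 0.0266 and 0.248 TPM, but Lyve1, of lymphatic vessels, had 3.04 and 4.36 TPM and Esam 1.15 and 1.19 TPM, the only 2 of 14 to reach 1 TPM in both libraries. The myeloid genes Cd68 and Csf1r had 0.0914 and 0.270 TPM and 0 and 0.0464 TPM. In that list 4 of 19 genes reached 1 TPM in both libraries, namely Kit at 5.68 and 5.02 TPM, Cd14 at 3.07 and 4.69 TPM, Itgam at 2.19 and 4.76 TPM and Lyz2, which shares sequence with Lyz1, at 2.52 and 2.81 TPM. The stromal gene Vim had 3.90 and 8.004 TPM, and 4 of 8 erythroid genes, all globins, reached 1 TPM in both. Higher values came from genes that epithelium can also express, such as Sdc1, syndecan, at 25.3 and 48.1 TPM, and Blnk at 10.7 and 13.6 TPM, from the immunoglobulin gene Igkc at 1.25 and 8.72 TPM and from haemoglobin, with Hbb-b1 at 10.6 and 3.88 TPM. Jchain, of plasma cells, had 0.0792 and 1.26 TPM, Cd79a 0.0986 and 0 TPM, the erythroid enzyme gene Alas2 0.227 and 0.121 TPM, and the glial gene S100b 0.174 and 0.327 TPM.

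A TATAAA box at a fixed distance before the start of transcription is a known feature of many highly and tissue-specifically expressed genes. RefSeq promoters of the build GRCm38.p6 were searched for the letters TATAAA between 40 and 20 bases before the annotated start, on the strand of the gene. The box was found for 608 of 27025 genes with a promoter sequence, or 2.25%, and for 1.59% of the genes at 1 TPM or more in both libraries. Of the 30 highest genes 18 had a promoter sequence and 3 of these held the box, namely Fabp1, Reg1 and Reg3g. Of the 100 highest, 8 of 72 held it, or 11.1%, and of the 1000 highest 29 of 786, or 3.69%. In the Paneth list it was 5 of 13 genes, namely Defa20, Defa21, Defa22, Defa23 and Mmp7, and in the enterocyte list 5 of 29. In the goblet list it was 0 of 13. Lists of lower level also held it, with 3 of 9 colon, 2 of 8 reserve stem and 3 of 14 myeloid genes. A gene with several annotated starts was counted if any of them had the box, and Mmp7 has a second start without it. On the opposite strand the letters read TTTATA, which the same interval held in 0.655% of all genes with a promoter sequence and in 1 of the 18. The alpha-defensin promoters resemble one another and are not independent examples.

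The 60 bases before the start are shown for the 3 genes of the top 30 with the box, for 2 Paneth genes and for Bmi1, with the box in capitals. The positions are those of the GRCm38.p6 build and not of the mm9 build named for the deposited files.
Fabp1, chr6:71199819-71199878, plus strand: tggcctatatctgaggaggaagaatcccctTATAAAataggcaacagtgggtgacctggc
Reg1, chr6:78425923-78425982, plus strand: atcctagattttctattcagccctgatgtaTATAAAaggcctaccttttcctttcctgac
Reg3g, chr6:78468875-78468934, minus strand: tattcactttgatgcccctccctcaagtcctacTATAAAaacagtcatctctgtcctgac
Defa21, chr8:21025485-21025544, plus strand: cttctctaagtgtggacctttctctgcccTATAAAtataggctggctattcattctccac
Mmp7 (first start), chr9:7692030-7692089, plus strand: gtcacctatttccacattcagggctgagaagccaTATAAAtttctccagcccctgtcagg
Bmi1, chr2:18676958-18677017, plus strand: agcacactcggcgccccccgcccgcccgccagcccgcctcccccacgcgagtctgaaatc

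The box began 30 bases before the start in Fabp1 and Reg1, 27 in Reg3g, 31 in Defa21 and 26 in Mmp7. The Bmi1 fragment held no TATAAA in that interval, and neither did that of Lyz1, ranked 4 by mean TPM, which is not printed. These are matches of letters and not measured sites.

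The 2 libraries ranked genes alike but differed in level for whole groups. Across genes, which are not independent, Pearson r of log2(TPM + 1) was 0.987, and among genes at 1 TPM or more it was 0.970 with a Spearman rho of 0.961. Of 11240 genes with at least 1 TPM in either library, 89.9% were within 2-fold, and 70.9% were higher in replicate 2, with a median log2 ratio of replicate 1 to replicate 2 of -0.28. With edgeR or DESeq2 scaling that median was 0.0057 or 0.015, so directions of values near it depend on the scaling. On the TPM scale the list medians of this ratio were 0.66 for goblet, 0.51 for tuft and 0.33 for Paneth genes, against -0.62 for enterocyte, -0.66 for enteroendocrine, -0.78 for cycling stem and -0.81 for serotonin genes. Immediate early genes, which are induced within minutes by stress or growth signals, had a median of -0.98, and Fos, for example, had 26.4 and 76.8 TPM, Junb 43.9 and 97.9 TPM and Egr1 1.2 and 8.38 TPM. None of these 8 list medians changed sign with edgeR or DESeq2 scaling, but their sizes moved. With edgeR scaling they were 0.99 for goblet, 0.80 for tuft, 0.68 for Paneth, -0.28 for enterocyte, -0.42 for enteroendocrine, -0.55 for cycling stem, -0.50 for serotonin and -0.72 for immediate early genes.

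Single genes with the widest gaps were found among those with a mean of at least 10 TPM. Cp, ceruloplasmin, had 87.9 TPM in replicate 1, from 29268 counts, and 0.0254 TPM in replicate 2, from 5 counts. Alpha-defensin genes came next, among them Gm10104, Gm15299 and Defa-rs7, the last with 23.7 and 1.55 TPM, followed by Kctd14, the defensin gene Gm15292, Cotl1, Spink4 and Alox5ap, which were 2.63-fold to 3.66-fold higher in replicate 1. In the other direction, Sprr2a1, a barrier protein gene, had 0.0893 and 32.1 TPM, Nos2, the inducible nitric oxide synthase, 0.398 and 24.0 TPM, and Fgf15, a hormone of the ileum that is induced by bile acids, 3.45 and 44.2 TPM. G0s2, Me1, Acot1 and Cyp4a10, of fatty acid metabolism, had 3.92 and 58.6, 6.33 and 63.6, 1.47 and 19.4, and 9.14 and 78.5 TPM. Nfkbiz, Susd2 and Slc28a1 were 6.60-fold to 9.23-fold higher in replicate 2. Of 5438 genes with a mean of at least 10 TPM, 5 were more than 4-fold higher in replicate 1 and 21 in replicate 2.

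**Figure D5:**
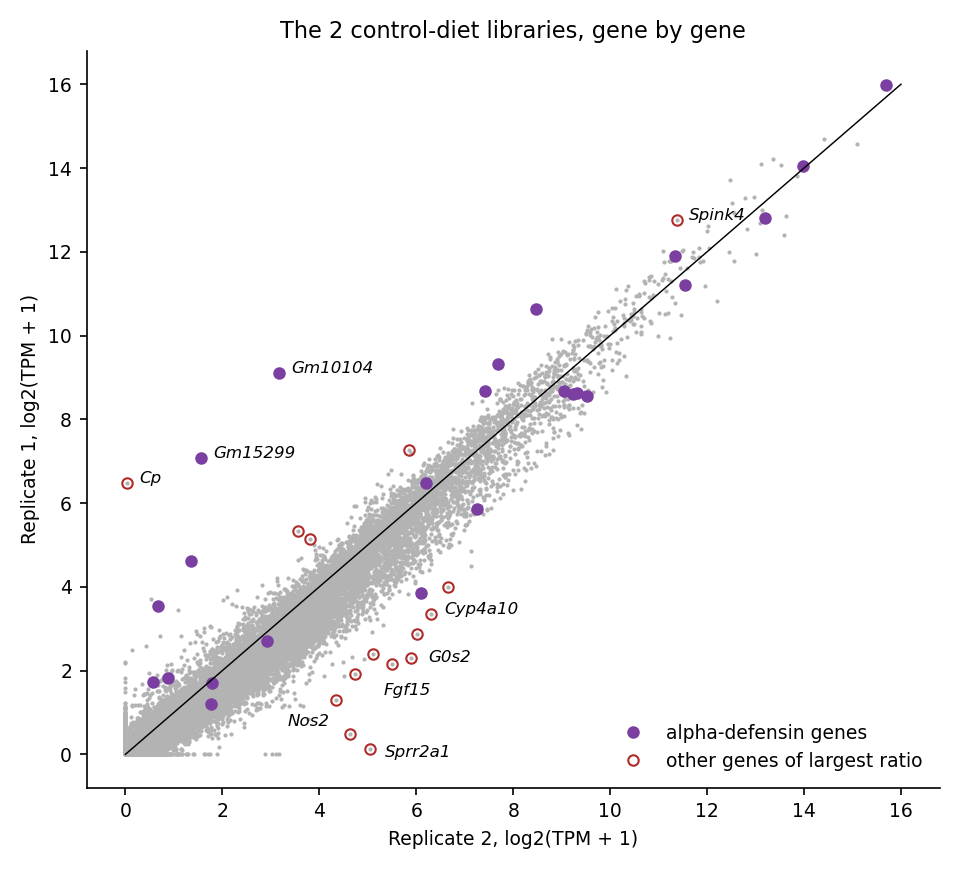
log2(TPM + 1) of each gene in replicate 1 (vertical) against replicate 2 (horizontal), with alpha-defensin genes as filled points, the other genes of largest ratio as open circles and a line of equality. Cp, Gm10104 and Gm15299 lie far above the line, and Sprr2a1, Nos2 and Fgf15 below it.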

How the data were processed

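Bulk RNA-seq values of the 2 AIN76A libraries were used. The deposited counts are whole per Ensembl gene, and the deposited TPM values come from the authors' table, in which each column sums to the same total. The ratio of TPM to counts differed between the libraries by the same factor for every gene compared (relative range 1.13e-08 over 10791 genes), so both tables hold the same measurement. Per the submitters' processing notes, STAR 2.4.2a, HTSeq 0.6.1, edgeR and the build mm9 were used; roles, annotation, strand setting and filters are not given in the sources used here. Paired-end libraries were prepared with the SMART-Seq v4 and Nextera XT kits, per the labels' protocols.

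Genes were ranked by mean TPM. Lists were 28 sets of 526 symbols, of which 519 were used, 11 of them matched by a newer name; 4 matched no gene and the rest were second names of genes already listed. Ratios of replicates are of log2(TPM + 1) for genes of 1 TPM or more in either library. Named were the 30 highest genes, 3 highest and defining members per list, all hormone, secretory factor and Polycomb genes, the 10 largest ratios in each direction above a mean of 10 TPM, and Bmi1, Epcam and Ptprc; other named genes were chosen after their values were seen, and some genes under this rule are not reported here. The members and lists were chosen with earlier results of these data known. Transcript and promoter sequences came from GENCODE M21 and RefSeq (GRCm38.p6), another build than mm9. 1 column of values matched no sample and was not used. Alternatives were thresholds, CPM, a total without mitochondrial genes, filters, pseudocounts, edgeR 4.0.16 TMM and DESeq2 1.42.0 size factors in R 4.3.3, thinning, and each library left out. The formulas for ranks and ratios were run on counts redrawn around those of replicate 1. That run checks the calculation only, not the spread between libraries or the handling of reads that match several genes. Python 3.11.15 with pandas 2.3.3 was used.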

Additional observations from a re-analysis of the deposited data

How the results depend on the processing

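No paired analysis was possible because the results describe 1 group and come from no test. At 5 TPM 6563 genes were detected in both libraries, against 10251 at 1 TPM, and 10498 to 10993 in single libraries. By CPM, which favours long transcripts, the list percentiles were 93.5 for Paneth, 82.1 for goblet, 55.2 for enteroendocrine, 80.5 for gut hormone and 99.5 for enterocyte genes. Among genes at 1 TPM or more they were 97.7 for Paneth, 74.6 for goblet, 9.61 for enteroendocrine, 84.8 for gut hormone, 39.9 for tuft, 98.3 for enterocyte, 37.5 for cycling stem, 19.98 for reserve stem and 63.1 for proliferation genes, since fewer genes are compared. With 1 library left out, percentiles were 98.4 to 98.7 for Paneth, 89.3 to 91.6 for gut hormone and 51.5 to 55.1 for reserve stem genes. Without alpha-defensins, an alternative chosen after seeing the data, Paneth genes were at 99.1. The median log2 ratio of replicate 1 to 2 over all genes was -0.28, and it was -0.078 without a filter on TPM, 0.0057 with edgeR TMM scaling and 0.015 with DESeq2 size factors. By list it changed sign for gut hormone genes, at -0.065 for genes of 10 TPM or more and -0.0037 without a filter, and for T cell genes, at -0.039 without a filter. For reserve stem genes it was 0.34 at 10 TPM or more, and 0.030 and 0.037 with TMM and DESeq2 scaling. With those 2 scalings it was 0.023 and 0.033 for epithelial genes and 0.013 and 0.020 for endothelial genes, and with DESeq2 0.00034 for proximal genes. The cause was not tested.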

Other observations

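Markers of the proximal and of the distal small intestine were found together in both libraries. Of 15 genes typical of the proximal small intestine 12 reached 1 TPM in both, with Gata4 at 17.2 and 43.7 TPM, Pdx1, the duodenal factor, at 6.61 and 6.72 TPM, and Adh6a at 1511 and 1440 TPM beside Fabp1 and Apoa4. Of 14 distal genes 12 did so, including Fabp6, the ileal bile acid binding protein, at 201 and 563 TPM, Slc51a, a bile acid exporter subunit, at 584 and 632 TPM, and Slc10a2, the ileal bile acid uptake transporter, at 1.32 and 6.50 TPM. Guca2a was the highest distal gene, at 4122 and 2188 TPM, and is also on the goblet list. Of 15 colon genes 6 did so, led by Prdx6 at 551 and 455 TPM, Car4 at 123 and 197 TPM and Slc26a3 at 40.3 and 64.4 TPM, while Car1, Hoxb13 and Insl5 had no count.

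Within the mitochondrial genome, levels differed widely between genes that are transcribed together. mt-Cytb had 6576 and 8786 TPM, mt-Nd1 5927 and 7253 TPM and the ribosomal RNA gene mt-Rnr2 4054 and 3361 TPM, whereas mt-Co2 had 0.0420 and 0.213 TPM, mt-Co3 0.367 and 0 TPM and mt-Atp6 0.591 and 0.0713 TPM. Of the 50-base stretches of mt-Co2, mt-Co3 and mt-Atp6, 100%, 99.9% and 99.5% also occur in other annotated genes, against 0% for mt-Cytb and mt-Nd1. mt-Nd4l, with 98.8% shared, and mt-Atp8, with 0% shared, had no count in either library. mt-Co1, with 51.1% shared, had 3497 and 5983 TPM. The treatment of reads that match several genes was not tested.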
